A study of Homo sapiens with 12 samples.

Results

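The proteasome gene promoters are the promoters of the 48 protein-coding genes whose symbols run from PSMA to PSMG and end in digits, out of 20136 protein-coding genes of GENCODE on GRCh37 (hg19). PSMC3IP and PSME3IP1, whose symbols go on after the digits and which encode no proteasome subunit, were left out. The measurement was of H3K4me3, trimethylated histone H3 that marks active gene starts, by CUT&RUN, which cuts out and sequences the DNA next to a bound antibody. The cells were BON1, a human pancreatic neuroendocrine tumor line, named BON1/TGL/pQ for the control and BON1/TGL/HA-Bcl-xL for the line made to express more HA-Bcl-xL, a tagged survival protein that blocks apoptosis. TGL and puromycin in the medium were common to both lines, and 500000 cells were used per condition. H3K4me3 lists of 3 control libraries and of HA-Bcl-xL replicates 2 and 3 were used, beside rabbit anti-mouse IgG lists of 3 libraries per line, 11 of the 12 samples labelled. Replicate 1 of H3K4me3 in HA-Bcl-xL was not analysed here. The labels do not say whether replicates came from separate cultures or how many clones each line holds, so any p measures only the spread between these libraries.

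The proteasome degrades proteins tagged with ubiquitin. Its 20S core is a barrel of outer alpha rings and inner beta rings, and only some beta subunits cut peptide bonds. The 19S particle caps the core: the ATPases of its base unfold substrates, other base subunits bind ubiquitin, and its lid removes ubiquitin. Immune signals such as interferon gamma replace the cutting subunits by inducible forms, which make the immunoproteasome. Chaperones assemble the particles, and PSME proteins activate the core. The transcription factor NFE2L1 raises proteasome genes as a group when the proteasome is inhibited, through antioxidant response elements.

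The promoter sequences below give the constitutive cutting subunits PSMB5, PSMB6 and PSMB7 beside PSMB10, an inducible form, and then PSMA4, PSMD4 and PSMB4, genes with strong promoter peaks. Each is the 200 bases before the gene's most 5′ annotated end, or before the canonical transcript's end for PSMB5, read from the GRCh37 genome on the gene's strand, 5′ to 3′. Capitals mark whole matches, on either strand, to the 10 motifs searched, listed further below.
PSMB5, chr14:23504110-23504309, minus strand: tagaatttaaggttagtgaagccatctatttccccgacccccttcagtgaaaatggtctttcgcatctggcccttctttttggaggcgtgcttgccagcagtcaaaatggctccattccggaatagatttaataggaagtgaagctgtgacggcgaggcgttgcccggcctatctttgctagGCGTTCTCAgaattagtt
PSMB6, chr17:4699239-4699438, plus strand: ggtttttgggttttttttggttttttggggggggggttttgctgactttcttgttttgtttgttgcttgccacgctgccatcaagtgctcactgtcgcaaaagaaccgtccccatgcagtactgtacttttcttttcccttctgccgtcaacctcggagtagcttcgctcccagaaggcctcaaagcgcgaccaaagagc
PSMB7, chr9:127177724-127177923, minus strand: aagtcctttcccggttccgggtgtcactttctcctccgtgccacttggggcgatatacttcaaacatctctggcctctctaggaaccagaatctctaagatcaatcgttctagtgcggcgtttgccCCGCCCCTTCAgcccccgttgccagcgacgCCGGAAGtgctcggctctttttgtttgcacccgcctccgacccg
PSMB10, chr16:67970768-67970967, minus strand: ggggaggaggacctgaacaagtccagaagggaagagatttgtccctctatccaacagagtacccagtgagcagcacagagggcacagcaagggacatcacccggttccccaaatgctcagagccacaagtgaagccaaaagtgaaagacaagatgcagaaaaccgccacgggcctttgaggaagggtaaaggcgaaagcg
PSMA4, chr15:78832547-78832746, plus strand: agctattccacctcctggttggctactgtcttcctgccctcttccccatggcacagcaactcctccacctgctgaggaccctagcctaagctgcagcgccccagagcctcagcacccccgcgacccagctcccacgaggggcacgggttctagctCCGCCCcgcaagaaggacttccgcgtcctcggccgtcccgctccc
PSMD4, chr1:151226985-151227184, plus strand: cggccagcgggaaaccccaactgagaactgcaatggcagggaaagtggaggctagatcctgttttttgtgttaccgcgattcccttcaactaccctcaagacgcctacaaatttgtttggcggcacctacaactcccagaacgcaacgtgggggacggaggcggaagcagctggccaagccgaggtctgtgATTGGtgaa
PSMB4, chr1:151371836-151372035, plus strand: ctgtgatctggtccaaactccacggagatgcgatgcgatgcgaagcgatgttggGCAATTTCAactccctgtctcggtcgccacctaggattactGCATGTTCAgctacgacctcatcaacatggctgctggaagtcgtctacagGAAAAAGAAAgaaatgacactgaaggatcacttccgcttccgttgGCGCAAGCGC
The PSMB7 stretch held the GC box letters GGGCGG on the strand opposite to that printed. They overlapped TGANNNNGC, the core of the antioxidant response element, and the ETS letters CCGGAAG followed. The PSMB4 stretch held TGANNNNGC at 2 places, the interferon-stimulated response element and, against the end, the nuclear respiratory factor motif. The stretches of PSMB6 and PSMB10 held no whole match. A match is a description of letters and not a measured binding site.

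The peak lists differed in length between the libraries. The H3K4me3 lists held 10247 to 17711 peaks, the fewest in control replicate 3, against 244 to 2113 in the 6 IgG lists. The median number of fragments at a peak's summit, which was solved from the deposited fold and p-value of each peak and is therefore inferred, was 9 to 12 in the H3K4me3 lists and 3 to 5 in the IgG lists. At such low counts a missing peak does not show that the mark is absent. As a check of the label, neuroendocrine genes CHGB, SCG2 and SCG3 had a promoter peak in all 5 H3K4me3 libraries, CHGA in 1 control library, SYP in 1 library of each line and TPH1 in both HA-Bcl-xL and no control library. INSM1, ENO2, NKX2-2 and DDC had none within 1 kb of the most 5′ end, and ENO2 had one at its canonical start in 1 HA-Bcl-xL library. Within 2.5 kb INSM1 had a peak in all 5 libraries. The 10 matched markers of blood, endothelium, liver, fibroblasts and islet hormones had none within 1 kb of either start in any library. Within 2.5 kb the fibroblast gene COL1A1 had one in 1 HA-Bcl-xL library.

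Most proteasome promoters carried H3K4me3 in both lines. A peak lay within 1 kb of the most 5′ end of 39, 36 and 32 of the 48 genes in control replicates 1, 2 and 3. In HA-Bcl-xL the numbers were 38 in replicate 2 and 35 in replicate 3, and values below follow this order. These are 81.2, 75 and 66.7% in control and 79.2 and 72.9% in HA-Bcl-xL, where 40.4, 32.4, 28.2, 38.1 and 36.5% of all protein-coding genes had one. The control values span the HA-Bcl-xL values, and control replicate 3, which has the shortest list, was the lowest. The group means were 35.7 ± 3.51 genes (SD, n = 3) in control and 36.5 ± 2.12 (SD, n = 2) in HA-Bcl-xL, so the difference of 0.83 was smaller than the spread within either line. In the 6 IgG libraries 0 of the 48 had a promoter peak, where 0.785% of all genes had one in at least 1 of them. Per library this was 0.240 ± 0.0152% (SD, n = 3) of all genes in control IgG and 0.0215 ± 0.0174% (SD, n = 3) in HA-Bcl-xL IgG.

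A peak stood in all 5 H3K4me3 libraries at 31 of the 48 (64.6%), where 21.3% of all protein-coding genes had one. It stood in at least 1 library at 39 (81.2%, against 48.2%) and in none at 9 (18.8%, against 51.8%). In both HA-Bcl-xL and no control library there were 0 of 48, against 0.844% of all genes, and in every control and no HA-Bcl-xL library 0, against 0.248%. These counts of 0 among 48 are near the shares over all genes.

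**Figure D1:**
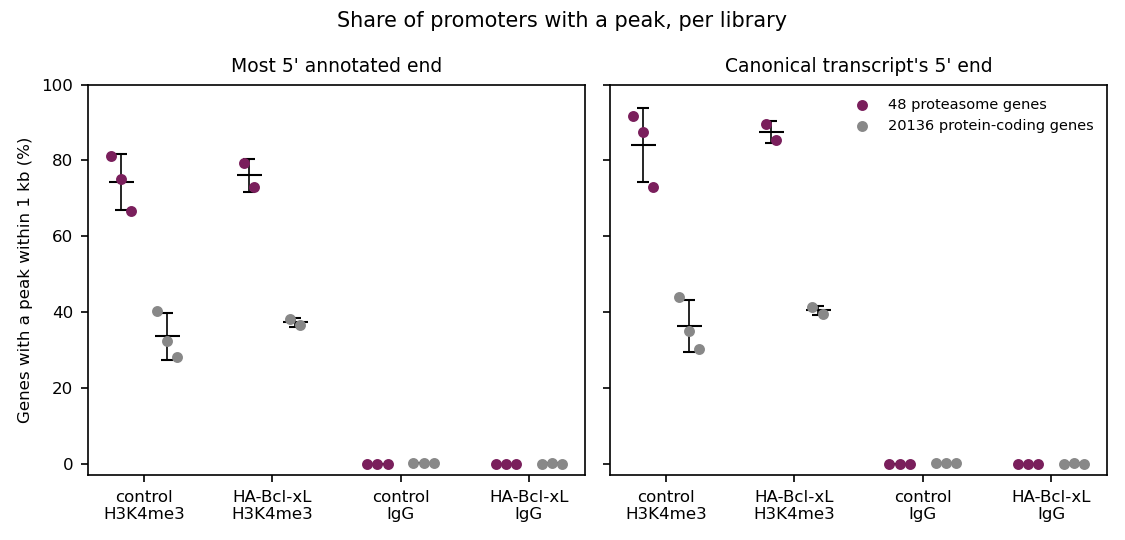
Percent of genes with a peak within 1 kb of the most 5′ end (left) or of the canonical transcript's 5′ end (right); points are libraries, bars the mean and SD, purple the 48 proteasome genes and grey all protein-coding genes. The proteasome genes lie between 66.7 and 91.7% in the H3K4me3 libraries and at 0 in the IgG libraries.

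The 9 genes with no peak by this rule were PSMA1, PSMA6, PSMA8, PSMB8, PSMB9, PSMB11, PSMC2, PSMD6 and PSMF1. For several the most 5′ annotated end lies far from the canonical transcript's start: 123249 bp for PSMA1, 19073 bp for PSMC2, 13749 bp for PSMA6, 10056 bp for PSMB9 and 5362 bp for PSMF1. The canonical start was therefore used as well, a choice made after the data were seen. By it 44, 42 and 35 genes had a peak in control and 43 and 41 in HA-Bcl-xL, with means of 40.3 ± 4.73 (SD, n = 3) and 42 ± 1.41 (SD, n = 2). A peak then stood in all 5 libraries at 34 genes (70.8%, where 22.9% of all genes had one) in at least 1 at 45 (93.8%, against 52%) and in none at 3 (6.25%, against 48%), PSMA8, PSMB8 and PSMB11. Again 0 were specific to a line (0.973% of all genes were so for HA-Bcl-xL and 0.233% for control), and 0 had an IgG peak, against 0.824%.

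**Figure D2:**
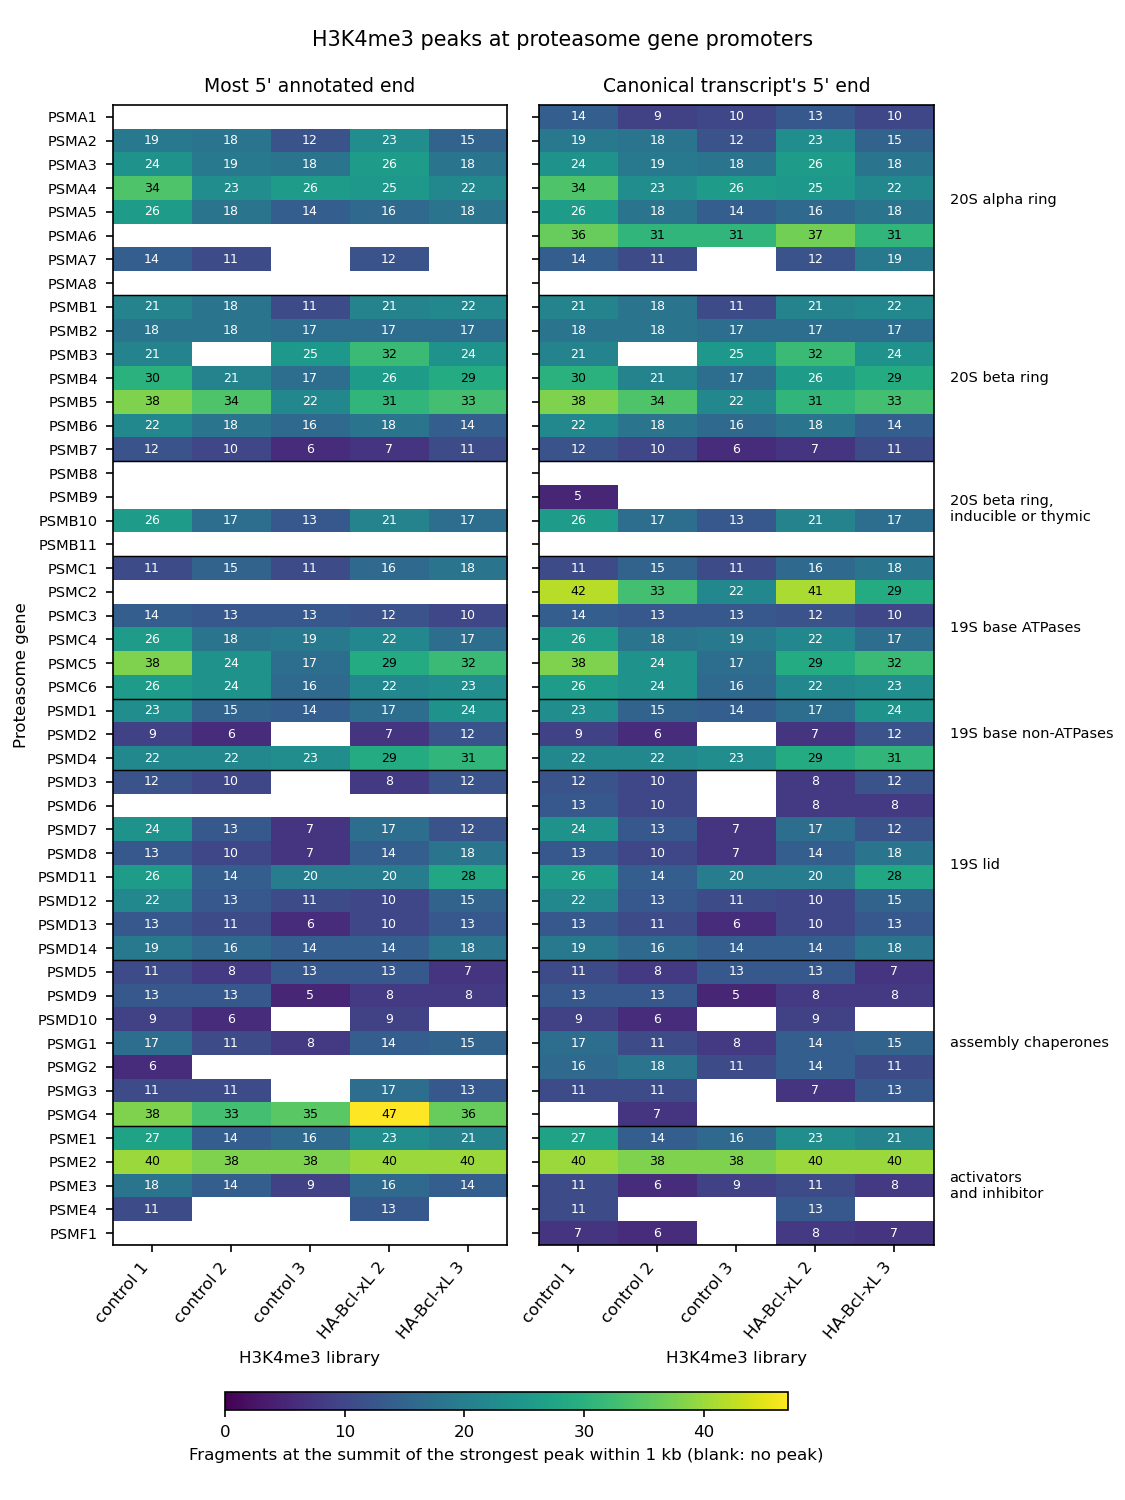
Fragments at the summit of the strongest promoter peak for each of the 48 genes (rows, grouped by subcomplex) in the 5 H3K4me3 libraries (columns), at the most 5′ end (left) and the canonical start (right); blank cells have no peak. Rows of PSMA6 and PSMC2 fill in on the right, PSMG4 empties to 1 library, and the inducible or thymic block stays blank except PSMB10 and 1 library of PSMB9.

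Of the 8 alpha ring genes, whose proteins gate the core, 4 had a peak in all 5 libraries at the most 5′ end and 6 at the canonical start. PSMA6 had 36, 31 and 31 summit fragments at its canonical start in control and 37 and 31 in HA-Bcl-xL, with summits 154 to 193 bp upstream. These values overlap between the lines and differ little from library to library. PSMA4 had 34, 23 and 26 in control and 25 and 22 in HA-Bcl-xL, again overlapping. PSMA1 was weaker, with 14, 9 and 10 in control and 13 and 10 in HA-Bcl-xL at its canonical start. PSMA8, the form of the testis, had no peak in any library, and the nearest lay 42868 to 42904 bp away. PSMA7 had 14 and 11 fragments in control replicates 1 and 2 and 12 in HA-Bcl-xL replicate 2, near the edge of the window. Moving the start by 46 bp to the canonical one added a peak of 19 fragments in HA-Bcl-xL replicate 3, whose summit lay 1054 bp downstream.

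Of the 7 constitutive beta ring genes, 6 had a peak in all 5 libraries and PSMB3 in 4. PSMB5, the subunit with chymotrypsin-like activity, had 38, 34 and 22 summit fragments in control and 31 and 33 in HA-Bcl-xL. Its summits lay 14 to 42 bp upstream of the canonical start, inside the PSMB5 stretch printed above. The HA-Bcl-xL values fall within the control range, whose low value is replicate 3. PSMB6, with caspase-like activity, had 22, 18 and 16 in control and 18 and 14 in HA-Bcl-xL. PSMB7, with trypsin-like activity, was the weakest of these 3, at 12, 10 and 6 in control and 7 and 11 in HA-Bcl-xL. Its strongest summit lay 431 to 680 bp downstream of the start in every library, and only HA-Bcl-xL replicate 2 had a peak across the start itself. PSMB2 had 17 or 18 fragments in every library. PSMB3 had 21 and 25 in control replicates 1 and 3 and 32 and 24 in HA-Bcl-xL, each with the summit within 13 bp of the end. In control replicate 2 its nearest peak lay 1670 bp away.

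The inducible and thymic forms were blank with 1 exception. PSMB8, which replaces PSMB5 in the immunoproteasome, had no peak within 1 kb of any annotated end, and its nearest peaks lay 6329 to 49985 bp from the most 5′ end. PSMB9, which replaces PSMB6, had none at the most 5′ end and a single peak of 5 fragments at the canonical start, in control replicate 1 (chr6:32821003-32821079). That peak lay 948 bp upstream, beyond the start of the divergent TAP1, a peptide transporter gene whose start is 376 bp from that of PSMB9. PSMB11, the form of the thymic cortex, had none, and the nearest peaks, 6851 to 7192 bp away, were those around PSMB5. PSMB10, which replaces PSMB7, had 26, 17 and 13 fragments in control and 21 and 17 in HA-Bcl-xL. These overlap between the lines, but the peaks lay at the window's edge, in a later intron between chr16:67969538 and 67969867, with summits 1015 to 1075 bp downstream of the start. At the PSMB10 start itself only control replicate 3 had a peak (chr16:67970701-67970785), of 7 fragments.

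PSMB8 and PSMB9 lie in the major histocompatibility region, for which hg19 also holds alternative chromosome 6 contigs. Peaks were listed on all 7 of those contigs, 135, 75 and 77 in control and 127 and 89 in HA-Bcl-xL, against 0 or 1 in each IgG list. Of 182 genes between 28.5 and 33.5 Mb of chromosome 6, 6.59 to 13.2% had a peak at the canonical start per H3K4me3 library, where 30.3 to 43.8% of all genes had one. The part of the contigs in the blanks at PSMB8 and PSMB9 was not tested. PSMB11 and PSMA8, on chromosomes 14 and 18, lie outside that region.

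**Figure D3:**
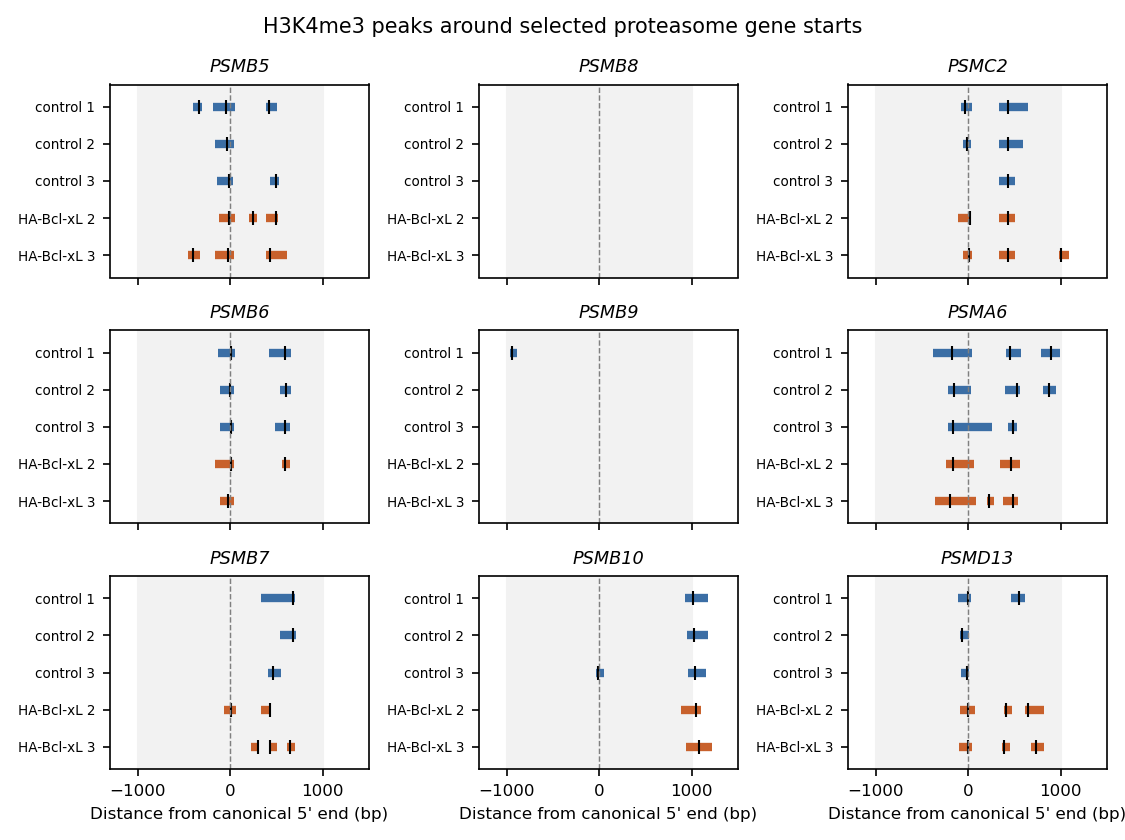
Peaks (bars; blue control, orange HA-Bcl-xL) and their summits (black ticks) by distance in bp from the canonical start, in each H3K4me3 library, for 9 genes; the grey band is the 1 kb window. PSMB5, PSMB6 and PSMA6 have a peak at the start in all 5 libraries, PSMB10 at about the window's edge, and PSMB8 none.

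In the 19S base, 5 of the 6 ATPase genes had a peak in all 5 libraries at the most 5′ end and all 6 at the canonical start. PSMC2 had 42, 33 and 22 fragments in control and 41 and 29 in HA-Bcl-xL, and its summit lay 428 bp downstream in all 5 libraries, to the base. PSMC5 had 38, 24 and 17 in control and 29 and 32 in HA-Bcl-xL. In both genes control replicates 1 and 3 gave the highest and lowest values, with HA-Bcl-xL between them. Among the 3 non-ATPase genes PSMD4, a ubiquitin receptor, had 22, 22 and 23 in control and 29 and 31 in HA-Bcl-xL. Both HA-Bcl-xL libraries of PSMD4 were above every control library, with no test of the difference. Of the 31 genes with a peak in all 5 libraries, summit fragments did so at 3 (PSMD4, PSMC1 and PSMD8), where 8.04% of all 4289 such promoters did, and were below every control library at 1 (PSMC3), where 1.8% did. These counts are near that background. The strongest summits of PSMD4 lay 273 to 292 bp downstream in the first intron. PSMD1, a scaffold, had peaks in all 5, and PSMD2, the other scaffold, had 9 and 6 in control replicates 1 and 2, none in replicate 3, and 7 and 12 in HA-Bcl-xL.

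In the lid, 6 of 8 genes had a peak in all 5 libraries. PSMD14, the enzyme that removes ubiquitin, had 19, 16 and 14 in control and 14 and 18 in HA-Bcl-xL, which overlap. PSMD13 had 13, 11 and 6 in control and 10 and 13 in HA-Bcl-xL. PSMD8 had 13, 10 and 7 in control and 14 and 18 in HA-Bcl-xL, and PSMD3 had 12 and 10 in control replicates 1 and 2, none in replicate 3, and 8 and 12 in HA-Bcl-xL. PSMD6 showed how the window cuts: at the most 5′ end its nearest peaks began 1094 to 1128 bp away in 4 libraries, just outside, and the canonical start, 516 bp further down, brought them in at 13 and 10 fragments in control and 8 and 8 in HA-Bcl-xL.

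Of the 7 chaperone genes, 4 had a peak in all 5 libraries by either start. PSMG1 had 17, 11 and 8 fragments in control and 14 and 15 in HA-Bcl-xL, PSMD5 had 11, 8 and 13 against 13 and 7, and PSMD9 had 13, 13 and 5 against 8 and 8. PSMD10 was missed in control replicate 3 and HA-Bcl-xL replicate 3, and PSMG3 in control replicate 3. PSMG4 had 38, 33 and 35 fragments in control and 47 and 36 in HA-Bcl-xL at its most 5′ end. The tubulin gene TUBB2B starts 327 bp from that end on the opposite strand. These PSMG4 summits lay 335 to 356 bp downstream of the same end. At the canonical start of PSMG4, 27544 bp further down, only control replicate 2 had a peak, of 7 fragments. PSMG2 did the reverse, with 1 peak at the most 5′ end and 16, 18 and 11 in control and 14 and 11 in HA-Bcl-xL at its canonical start, 265 bp from that of CEP76.

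Of the 4 activators and the inhibitor, PSME1, PSME2 and PSME3 had a peak in all 5 libraries. PSME2, an interferon-inducible activator with PSME1, had 40, 38 and 38 fragments in control and 40 and 40 in HA-Bcl-xL. Those of PSME2 lay 247 to 808 bp upstream of its canonical start, on the side of the divergent RNF31, which starts 73 bp away. The peak list cannot say which of the genes such a shared peak belongs to. PSME4 had 11 in control replicate 1 and 13 in HA-Bcl-xL replicate 2. In the other 3 libraries its nearest peaks began 1203 to 1346 bp downstream, just outside the window, with 13, 23 and 24 fragments. PSMF1, the inhibitor PI31, had 7 and 6 in control replicates 1 and 2, none in replicate 3, and 8 and 7 in HA-Bcl-xL at its canonical start.

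Widening the window to 2.5 kb gave 41, 41 and 35 genes in control and 40 and 38 in HA-Bcl-xL, and 34 in all 5 libraries, where 25.6% of all genes had one. PSMA1 and PSMD6 went from 0 to 4 libraries and PSME4 from 2 to 5. The peaks gained at PSMA1 had summits at −1671 to −1390 bp from the most 5′ end. PDE3B, on the opposite strand, starts 169 bp from that end. When the start of any annotated transcript counted, 45, 43 and 36 genes had a peak in control and 44 and 42 in HA-Bcl-xL, and 35 in all 5, against 26.5% of all genes. IgG peaks then appeared at alternative ends of 4 genes (8.33%, against 2.27% of all), PSMC2, PSMD1, PSMD13 and PSMD14, in 1 gene of control IgG replicate 2 and 3 of replicate 3.

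Peaks at proteasome promoters were taller than those at promoters in general. Among promoters with a peak at the most 5′ end, the median summit held 21, 15 and 14 fragments in control and 17 and 18 in HA-Bcl-xL, against 13, 11 and 10, and 12 and 12, over all genes with one. The percentile rank of a peak places its deposited −log10 p within its own list, with 100 the strongest. The median rank of the strongest promoter peak was 82.5, 80.7 and 81.7 in control and 87.2 and 83.4 in HA-Bcl-xL for proteasome genes, against 64.2 to 68.4 over all genes. The share with 2 or more promoter peaks was 46.9 to 61.5% per library, against 26.6 to 45.0%. These are descriptions with no test.

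Among the 31 genes with a peak in all 5 libraries, PSMG4, PSMB5, PSME2, PSMA4 and PSMD4 had the highest mean ranks, 99.6, 98.4, 98.3, 97.3 and 97.0. PSMB7, PSMD13, PSMD5, PSMG1 and PSMD8 had the lowest, 49.4, 53.0, 61.5, 61.6 and 61.8. The high group thus held an alpha ring gene, a cutting beta subunit, an activator, a ubiquitin receptor and the PSMG4 end shared with TUBB2B, and the low group a cutting beta subunit, lid genes and chaperones.

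Of 379 summits of peaks touching the 1 kb window around the canonical starts, 46.2% were in the first intron, 38.5% upstream and 11.1% in the first exon. Of the 366 within 1 kb, 27.0% lay in the 200 bp before the start, against 30.0% over all protein-coding genes, and 15.6% lay 600 to 800 bp after it, against 11.4%. Downstream of the start lay 220 of the 366 (60.1%), against 48.8% of 54681 summits over all genes, a description with no test. By library, over the 379, the share downstream was 58.9, 60 and 58.9% in control and 65.4 and 61.0% in HA-Bcl-xL. These shares count every peak of a promoter. For the strongest peak of each, 47.7, 52.4 and 54.3% lay downstream in control and 58.1 and 48.8% in HA-Bcl-xL, against 46.0 to 49.1% over all genes.

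**Figure D4:**
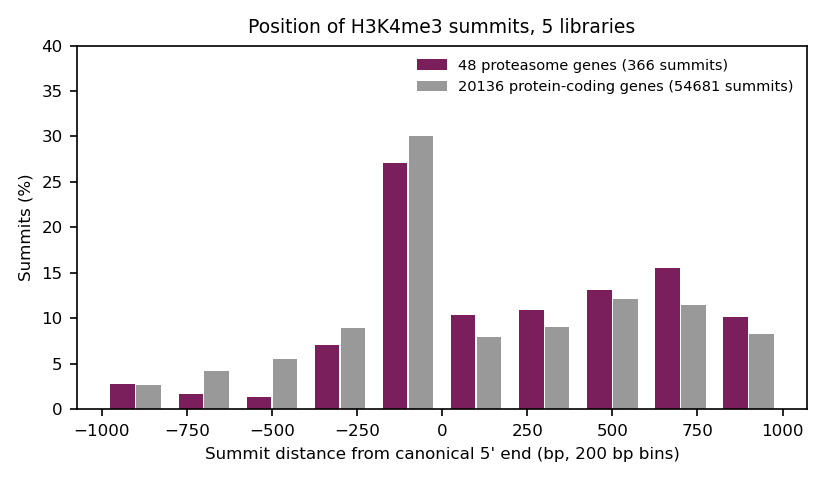
Percent of H3K4me3 summits by distance from the canonical start in 200 bp bins, pooled over the 5 libraries, for the proteasome genes (purple) and all protein-coding genes (grey). Both have their tallest bar, 27.0 and 30.0%, just before the start.

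The width of the mark was compared as the bases under peaks within 1 kb of the most 5′ end, at the 4289 promoters with a peak in all 5 libraries, 31 of them of proteasome genes. With limma on the log2 of these bases, each library centred on its median, 0 promoters had an adjusted p (Benjamini-Hochberg) under 0.05 in either direction, and the smallest was 0.834. At an unadjusted p under 0.05 there were 210 (4.9%), 2 of them proteasome genes. The median log2 change of the 31 was 0.10, against −0.02 over all, with 20 higher and 11 lower in HA-Bcl-xL. Without control replicate 1 the median of the 31 was −0.0274, with 13 higher and 18 lower. With all libraries and no centring the median was 0.23, with 24 higher and 7 lower. A block for the replicate number is no separate check, because control replicate 1 then drops out of the contrast. It is the only H3K4me3 library analysed with that number. The blocked median was −0.0269, with 13 higher and 18 lower. That fit called 13 promoters, 11 wider and 2 narrower in HA-Bcl-xL, 0 of them proteasome genes. On simulated widths for these libraries a log2 change of 1 was recovered at 0% of 200 promoters and one of 2 at 59%, so changes of 1 or less were not detectable here.

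The largest change was at PSMD13, with 298, 99 and 87 bases in control and 465 and 369 in HA-Bcl-xL. Its log2 change was 1.47 (SE 0.437), with an adjusted limma p of 0.834. All 5 libraries had a peak at the PSMD13 start, which is 45 bp from that of the divergent SIRT3. Both HA-Bcl-xL libraries had further peaks downstream, and of the control libraries only replicate 1 had another. PSMC5 had 298, 322 and 122 bases in control and 417 and 423 in HA-Bcl-xL, a log2 change of 0.76 (SE 0.429). PSMA2 had 289, 364 and 159 against 389 and 509, a log2 change of 0.67. For both the adjusted limma p was 0.982 or above. In the other direction PSMC1 had 391, 405 and 318 bases in control and 195 and 203 in HA-Bcl-xL. Its log2 change was −1.02 (SE 0.401), with an adjusted limma p of 0.962. PSMA3 had 975, 612 and 779 against 577 and 408 (log2 −0.80), and PSMB6 had 418, 270 and 311 against 294 and 152 (log2 −0.76). Neither passed after adjustment. On the centred scale the lines did not overlap at 3 of the 31 with HA-Bcl-xL wider (PSMD13, PSMA4 and PSMC5), where 8.51% of all 4289 did so. They did not overlap at 4 with HA-Bcl-xL narrower (PSMA3, PSMC1, PSMB6 and PSMG4), where 10.4% did so. Both counts are near that background.

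**Figure D5:**
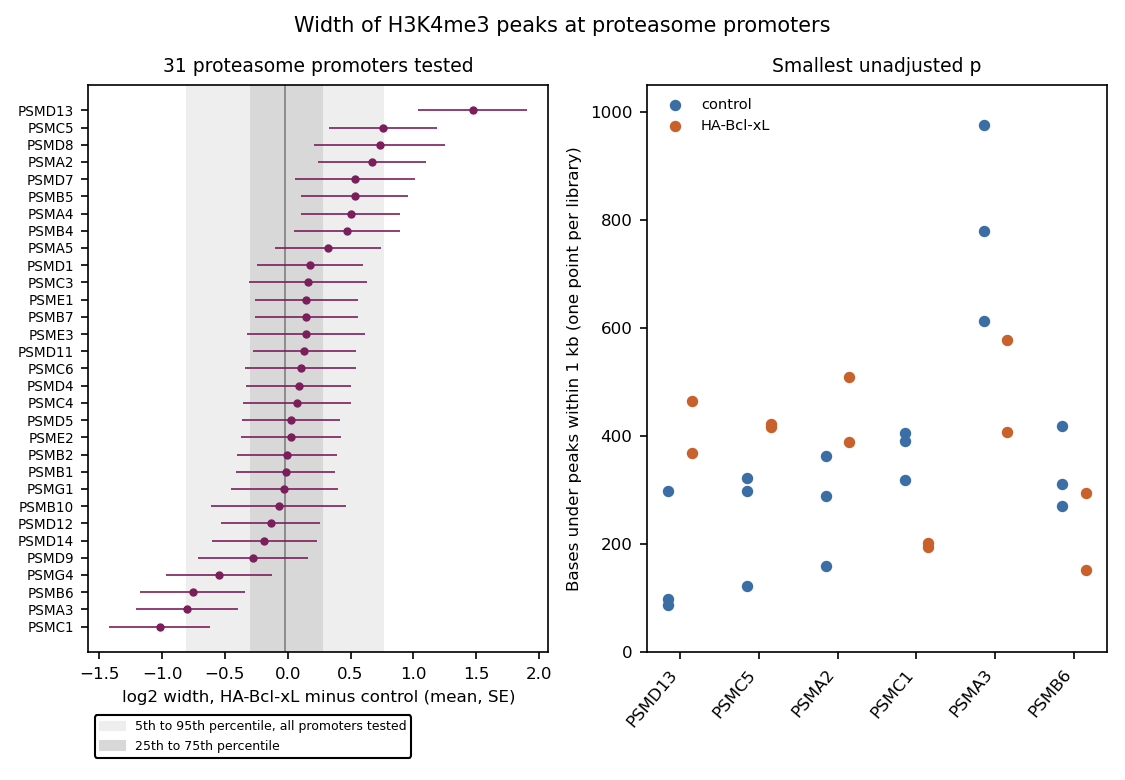
Left, log2 change in bases under peaks (points, with SE) for the 31 proteasome promoters tested, over the 5th to 95th and 25th to 75th percentile of all 4289 (grey); right, bases per library for the 3 genes in each direction with the smallest unadjusted p. PSMD13, PSMC5, PSMC1 and PSMA3, 4 of the 31, lie outside the 5th to 95th percentile band of −0.80 to 0.76, which leaves out 10% of all promoters.

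The promoters were searched for 10 motifs on both strands, from 250 bases before to 50 after the most 5′ end. They were the CCAAT box (letters as named), the GC box GGGCGG, the antioxidant response element core TGANNNNGC, the nuclear respiratory factor motif, the ETS motif CCGGAAG and the YY1 motif AAGATGGC. The others were the E-box CACGTG, the cyclic AMP response letters TGACGT, the TATA motif TATAAA and the interferon-stimulated response element. The core TGANNNNGC can overlap the GC box, as in PSMB7. TGANNNNGC stood in 32 of 48 (66.7%), against 41.6% of all protein-coding promoters. The ETS letters CCGGAAG stood in 12 (25%), against 11.8%, and around the canonical start in 18 (37.5%), against 14.0%. The interferon-stimulated response element stood in 5 (10.4%), against 3.48%, namely PSMA4, PSMB10, PSMB4, PSMB9 and PSME1. AAGATGGC stood in 4 (8.33%), against 3.02%. The others ran from 4.17% (the nuclear respiratory factor motif, against 6.92%, and the E-box, against 8.33%) to 60.4% (GGGCGG, against 52.2%). CCAAT stood in 41.7%, against 35.8%, TATAAA in 6.25%, against 10.9%, and TGACGT in 6.25%, against 8.86%. Around the canonical start 2 of these shares moved above that of all genes: the nuclear respiratory factor motif stood in 10.4%, against 8.35%, and TATAAA in 10.4%, against 9.81%. TGACGT fell there to 2.08%, against 9.47%, TGANNNNGC to 62.5%, against 42.3%, and AAGATGGC rose to 12.5%, against 4.02%. The interferon-stimulated response element then stood in 6 (12.5%), against 3.32%, namely PSMB10, PSMB4, PSMB8, PSME1, PSME2 and PSMG4. Median GC content was 60.7%, against 60.3% over all genes, around the most 5′ end and 61.7%, against 63.7%, around the canonical start. Among the fifth of genes lowest in GC content around the canonical start, 5 of 5 proteasome genes had the peak in every H3K4me3 library, and among the fifth highest 1 of 5. Over all genes those shares were 9.57 and 12.1%, with 27.8 to 33.4% in between.

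Beyond the symbols chosen, 24 genes that work with the proteasome were followed. At the most 5′ end 9 of the 24 had a peak in all 5 libraries, where 21.3% of all protein-coding genes had one, 14 in some and 1, UBQLN2, in none. Per library there were 19, 14 and 11 of 24 in control and 20 and 19 in HA-Bcl-xL, where 28.2 to 40.4% of all genes had one. None had a peak in every library of 1 line and no library of the other. SEM1, a small lid subunit, had one in each of the 5 libraries. ADRM1, a ubiquitin receptor, had one in 1 library of each line. NFE2L1, its protease DDI2 and the unfoldase VCP had peaks in all 5 at either start. The related factor NFE2L2 had them in all 5 at its most 5′ end and in none at its canonical start. NGLY1, which activates NFE2L1 by removing sugars, had 1 in each line. POMP, which matures the core, had 2 in each line, and AKIRIN2, which brings proteasomes into the nucleus, had none in control and 1 in HA-Bcl-xL. Within 2.5 kb AKIRIN2 had a peak in all 5 libraries. The shuttle factors RAD23B and UBQLN4 had peaks in all 5.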

How the data were processed

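The narrowPeak lists, 1 for each library and without headers, were used as the authors deposited them. Per the submitters' processing notes the build was hg19 and the tools bcl2fastq 2.20, Trimmomatic 0.36, Bowtie2 2.2.9, MACS2 2.1.1 and deepTools 3.5.1, with no role, order or parameter given. Duplicate handling and the control used for calling are not given in the sources used here. Each list gives the deposited score (the integer part of 10 times −log10 q), the deposited fold enrichment and the deposited −log10 p and −log10 q of each peak, which were used only within a list, and the summit offset.

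Peaks of the autosomes 1 to 22 and of X and Y were set against GENCODE 44 lifted to GRCh37, with at least 1 bp inside the window. Fragments at each summit were solved from fold as (n + 1) / (background + 1) and a Poisson p, to within 0.001 in −log10 p. This gave a whole number for 95.9 to 99.97% of peaks per list and the right number for 100% of 1873 simulated peaks. The simulated peaks were made with the same formula and with backgrounds above the lowest in these lists. They check that the formula was inverted, not that the inferred counts are right. No other whole number came within 0.01 for 93.0 to 95.6% of peaks in the H3K4me3 lists and 79.2 to 98.9% in the IgG lists; the nearest was taken. Whether n counts fragments or reads is not recorded. Counts cover counting error only, since PCR copies are not independent. The width test was limma 3.58.1 (R 4.3.3), checked on simulated data; Python 3.11.15, numpy 2.4.6, pandas 2.3.3, scipy 1.17.1 and matplotlib 3.10.9 did the rest.

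The members, the gene, marker and motif lists and the tests were chosen with earlier results of these data known. Genes were named by role, by having no peak, by being specific to a line, by the 5 highest and 5 lowest mean ranks, by the 3 smallest p in each direction, by changing between windows and by IgG peaks. PSMB2, PSMB3, PSMC5 and some others were named after their values were seen. PECAM1 matched no gene. Alternatives were windows of 500 bp and 2.5 kb, any transcript end, a stricter q (−log10 of 5 or more), lists cut to one length, removal of IgG peaks, other width settings, a block for the replicate number and each library left out in turn. The canonical start was added after the data were seen.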

Additional observations from a re-analysis of the deposited data

Results flagged for a closer look

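The alternative chromosome 6 contigs, which no comparison of promoters used, held peaks in every H3K4me3 library, 75 in the library with the fewest and 135 in that with the most. The IgG lists held at most 1. PSMB8 and PSMB9 lie in the stretch these contigs duplicate. Their copies on the contigs were not analysed here, since the annotation covers the primary chromosomes.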

How the results depend on the processing

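The difference in members with a promoter peak, HA-Bcl-xL minus control, was 0.83 and ran from −1 (without control replicate 3) through −0.67 (without HA-Bcl-xL replicate 2) to 2.5 over libraries left out, so its sign rests on single libraries. The control count above IgG, 35.7, was 32.7 with −log10 q of at least 5, 39 within 2.5 kb, 29.3 within 500 bp, 40 at any transcript end and 40.3 at the canonical start. The HA-Bcl-xL count, 36.5, was 35 with −log10 q of at least 5 and with equal list lengths, 39 within 2.5 kb, 29.5 within 500 bp, 43 at any transcript end and 42 at the canonical start, and 35 to 38 with 1 library left out. The count of promoters with changed width, 0, ran from 0 to 9 with 1 library left out: 1 without control replicate 2, 3 without HA-Bcl-xL replicate 2 and 9 without HA-Bcl-xL replicate 3, with 0 proteasome genes in each; a lone HA-Bcl-xL library is there assumed to vary like the controls. The median log2 change of 0.10 was −0.0274 without control replicate 1 and ran up to 0.26. The cause was not tested.

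Replicate numbers 2 and 3 occur in both lines, and the labels do not say what a number shares. Deviations of same-numbered libraries from the mean of their line correlated at 0.0256 and 0.0480. With 2 HA-Bcl-xL libraries those deviations mirror each other, so the values cannot show whether the numbers pair. With the replicate block, control replicate 1, the only H3K4me3 library analysed with its number, drops out of the contrast. The blocked median log2 change over members, −0.0269, is thus no separate check from leaving that library out. The blocked fit called 13 promoters, 0 of them proteasome genes, where leaving that library out without a block called 0. Values with a spread had to keep their sign and move by at most that spread, and counts with none to stay within 1.5 times: 48 of 61 results under other settings and 33 of 41 with a library left out did so. Some of these could not change, such as those leaving out an IgG library, where member counts were 0. Line-specific member counts, 0 in every setting, are also among them. The tally is therefore no measure of stability. The median summit held 9 to 12 fragments. With equal list lengths control replicate 3 stayed lowest, at 32 members against 35 to 37, and the part of depth in the counts was not tested.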
